A study of Mus musculus with 2 samples.

Results

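The 4 large antigen receptor loci of the mouse genome were examined in brain DNA. They were set as windows in the build mm9: the immunoglobulin heavy chain locus Igh (chr12:114490000-117250000), the immunoglobulin kappa light chain locus Igk (chr6:67500000-70680000), the joint T cell receptor alpha and delta locus Tcra/Tcrd (chr14:53050000-54850000) and the T cell receptor beta locus Tcrb (chr6:40840000-41510000). The windows were chosen by position, with no methylation value in the rule, and a cytosine counted as a member when it lay in a window and had at most 100 reads. In all, 91856 of 27374390 listed nuclear cytosines were members (0.336%). Of these, 32689 lay in Igh, 35842 in Igk, 15564 in Tcra/Tcrd and 7761 in Tcrb.

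The DNA came from the dentate gyrus, a part of the hippocampus rich in granule neurons, dissected from both sides of the brain of wild-type (WT) male C57Black6 mice aged 8 to 10 weeks. No treatment, transgene or second genotype was part of the design, and the 2 whole-genome bisulfite libraries, described in the series as biological replicates, form 1 group. Bisulfite turns unmethylated cytosine into uracil, so a cytosine still read as cytosine counts as methylated, and methylcytosine and hydroxymethylcytosine look alike. The series asked where methylation outside CpG dinucleotides lies in adult brain. Replicate 1 listed 43 CHH sites or fewer in Tcra/Tcrd and in Tcrb and at most 155 in any window and context, so all comparisons between regions used replicate 2, and no replicate error is available. No expression was measured, so the tissue label was not checked against markers. A level is an average over all cells of the tissue, and few cells with much methylation cannot be told apart from many cells with little.

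Antigen receptor loci hold long arrays of variable (V) segments, followed by diversity (D, in Igh, Tcrd and Tcrb only) and joining (J) segments and the constant (C) genes. Developing B cells join one V segment to D and J segments of Igh, or to a J segment of Igk, to make an antibody gene, and developing T cells do the same at the T cell receptor loci. The segments stay in germline order in cells that are not lymphocytes, neurons included. Cytosine methylation in mammals lies mostly at CpG. Adult neurons also carry methylation at CpH, which is CHG and CHH together, where H is A, C or T, and it is densest at CA.

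No mm9 gene annotation was used, so segments were not placed at positions. In the RefSeq order of genes in another build, GRCm38.p6, Igh lies between Tmem121 and Zfp386, with 8 C genes at the Tmem121 side, then 4 J, 10 D and 120 V segments, and the Adam6a and Adam6b genes inside. Igk holds 102 V segments, 5 J segments and Igkc, its single C gene, at the side next to Rpia. Tcra/Tcrd lies between the olfactory receptor gene Olfr1510 and Dad1, with 119 V, 2 D and 53 J segments and the C genes Trdc and Trac at the Dad1 side. Inside it lie 4 protein-coding genes, the olfactory receptor genes Olfr1509, Olfr1508 and Olfr1507 and the gene Gm36448. Tcrb lies between Moxd2 and Ephb6, with 22 V, 2 D and 13 J segments and 2 C genes toward Ephb6, and with 13 protein-coding genes among the segments, trypsin genes such as Prss1, Prss2, Try4 and Try5 among them. Below, the constant border is the window edge on the side of the C genes, and distances are counted from it.

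Replicate 2 listed sites with at least 20 reads for CpG and CHG and at least 30 for CHH. The median depth in the windows was 23 reads for CpG and CHG and 32 to 33 for CHH. The level of a region is the share of methylated reads over all reads of its sites, with an exact Clopper-Pearson 95% interval that covers counting error alone, since the reads come from PCR, carry no molecular identifiers and may repeat a molecule. Mitochondrial CpH sites, taken as a measure of reads that failed to convert, had 0.368% (0.365% to 0.370%) over 2796 sites. All autosomal sites had 79.0% in CpG, 0.784% in CHG and 0.889% in CHH, and those CHG and CHH levels were 2.13 and 2.42 times the mitochondrial level.

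CpH methylation was lowest in Igh, next in Igk, and higher in Tcrb and Tcra/Tcrd, while all 4 windows lay below the autosomal level in both CpH contexts. In Igh, CHG had 0.388% (0.371% to 0.405%; 21418 sites), which is 1.06 times the mitochondrial level. Igk had 0.443% (0.426% to 0.461%; 24054 sites), or 1.21 times that level. The interval of the difference between these immunoglobulin loci, from -0.079 to -0.031 percentage points (Igh minus Igk), lay below 0. Tcrb had 0.564% (0.523% to 0.607%; 5121 sites) and Tcra/Tcrd 0.584% (0.554% to 0.615%; 9966 sites). These T cell receptor loci did not differ beyond counting error in CHG (Tcra/Tcrd minus Tcrb 0.020 points, -0.033 to 0.070), and each was above both immunoglobulin loci by intervals that excluded 0.

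CHH gave the same order of the windows at fewer sites. Igh had 0.366% (0.345% to 0.388%), an interval that holds the mitochondrial level. Igk had 0.502% (0.477% to 0.528%), Tcrb 0.587% (0.531% to 0.646%) and Tcra/Tcrd 0.658% (0.616% to 0.702%). The CHH difference between the T cell receptor loci, 0.071 points (-0.001 to 0.141), was again within counting error. In CpG, Igh stood apart with 72.0% (71.7% to 72.4%), against 79.0% (78.7% to 79.4%) in Igk, 79.9% (79.4% to 80.3%) in Tcra/Tcrd and 79.5% (78.8% to 80.2%) in Tcrb. Igh minus the autosomal CpG level was -6.995 points (-7.37 to -6.63), and the Igk level differed from it by 0.015 points (-0.307 to 0.333).

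**Figure D1:**
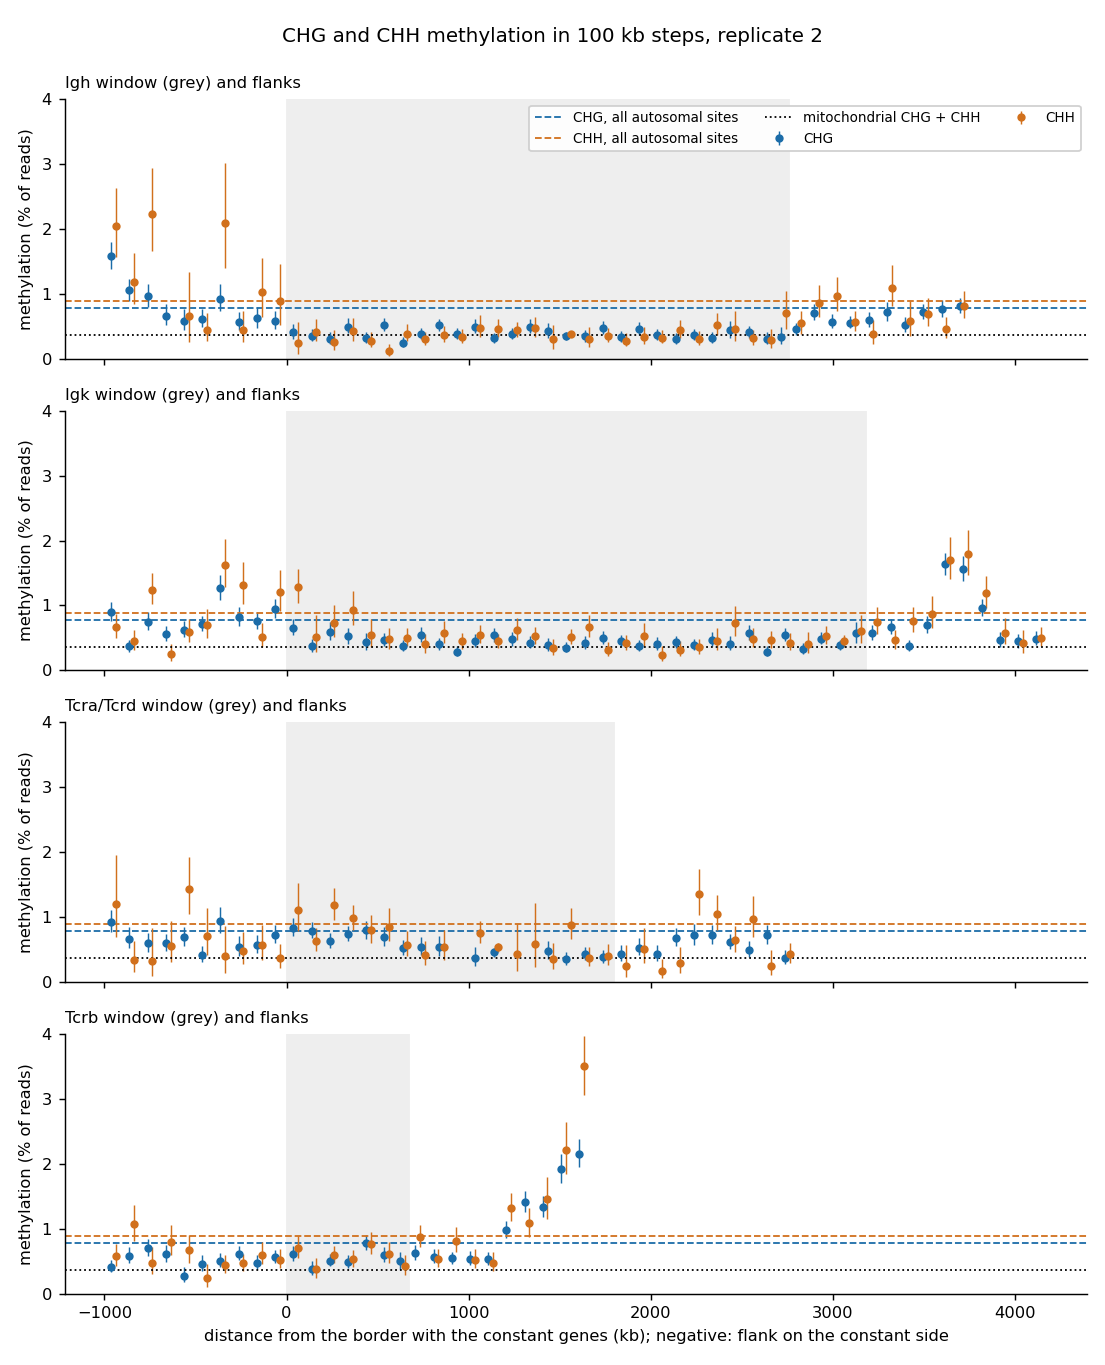
CHG and CHH methylation (% of reads, vertical axis) of 100 kb steps of replicate 2 by distance from the constant border (kb, horizontal axis), with each window in grey, its 1 Mb flanks outside the grey, exact 95% counting intervals as bars, autosomal levels dashed and the mitochondrial level dotted. Igh steps lie around the dotted line over the whole window (CHG 0.249% to 0.515%), and Tcra/Tcrd steps fall from up to 0.840% near the constant border to 0.358% toward the variable border.

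Each window was then described in steps of 100 kb, and each step was compared with the level of all autosomal sites by a two-sided exact binomial test, Benjamini-Hochberg adjusted at 0.05 over the whole autosomal genome of this library (23795 CHG, 23513 CHH and 23764 CpG steps). Such a call takes reads as independent and compares places in 1 library, not conditions. The windows of Igh (2760 kb), Igk (3180 kb) and Tcrb (670 kb) end at the variable border in a step shorter than 100 kb. Over all autosomal steps, 31.4% were called lower and 21.8% higher in CHG, 26.3% lower and 22.0% higher in CHH, and 30.9% lower and 46.4% higher in CpG. The median autosomal step had 0.734% in CHG (SD 0.265 over steps), 0.831% in CHH and 80.2% in CpG.

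Igh, the locus of the antibody heavy chain, was low in CHG along its whole length. All 28 steps were called lower, against 31.4% of all steps, with a range of 0.249% to 0.515% and a median of 0.375%. The median Igh step stood at percentile 2.06 of all autosomal steps, and the highest Igh step at percentile 12.4. The SD over the 28 steps, 0.074 points, was 1.56 times the SD that counting error alone gives. In CHH, 27 of 28 steps were called lower, against 26.3% of all steps, with a range of 0.113% to 0.708% and a median of 0.347%. The exception, at 0.708%, was the last step at the variable border, which is shorter than 100 kb.

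The lowest Igh step in CHG was chr12:115090000-115189999, 600 to 700 kb from the constant border, with 0.249% (0.183% to 0.331%) over 790 sites. Its CHH level was 0.382% and its CpG level 71.4%. The next lowest, chr12:116590000-116689999, had 0.304% (0.230% to 0.395%). The highest, chr12:115290000-115389999, had 0.515% (0.425% to 0.617%) over 934 sites, and chr12:114990000-115089999 had 0.514% (0.420% to 0.621%). The latter step had the lowest CHH level of the window, 0.113% (0.049% to 0.223%). Spearman's rho between the contexts was 0.04 over the 28 steps, against 0.65 over 23496 autosomal steps of the same library. The SD over Igh steps was only 1.56 (CHG) and 1.53 (CHH) times the SD that counting error alone gives. Ranks within so narrow a range are uncertain, so this rho does not show that the contexts differ.

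Outside Igh, CpH methylation was higher on both sides. The 1 Mb on the constant side had 0.841% in CHG and 1.10% in CHH, and the 1 Mb on the variable side had 0.643% and 0.685%. Set against both flanks together, the window was lower by 0.330 points in CHG (95% interval of window minus flanks -0.364 to -0.296) and by 0.431 points in CHH (-0.495 to -0.369). With flanks of 0.5 Mb in place of 1 Mb the CHG difference was -0.212 points. The step next to the constant border had 0.408% inside the window and 0.586% (0.463% to 0.732%) outside it. At the variable border the last step inside had 0.341%, the first outside 0.455% (0.368% to 0.556%) and the next 0.709% (0.593% to 0.840%), so the first 100 kb beyond that border still overlapped the Igh range.

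The ends of Igh did not differ in CpH methylation beyond counting error. The 300 kb at the constant border had 0.356% in CHG and 0.326% in CHH, and the 300 kb at the variable border had 0.387% and 0.389%. The variable end minus the constant end was 0.031 points in CHG (-0.050 to 0.111) and 0.064 points in CHH (-0.073 to 0.192). With ends of 100 kb these differences were -0.066 and 0.355 points. CpG methylation did differ between the ends, with 79.3% at the constant border and 70.8% at the variable border, a difference of -8.51 points (-10.3 to -6.75). Between the constant and the variable side of the window split at its middle the CpG difference was -1.39 points.

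Igk, the locus of the kappa light chain, was also low, but less evenly. In CHG, 31 of 32 steps were called lower (31.4% of all steps), with a range of 0.288% to 0.658% and a median of 0.434%. In CHH, 27 of 32 were called lower (26.3% of all steps) and 1 higher, with a range of 0.245% to 1.28%. The step at the constant border, chr6:70580001-70680000, was the highest in both contexts. It had 0.658% in CHG (0.539% to 0.796%; 673 sites; adjusted p = 0.12, exact binomial test) and 1.28% in CHH (1.04% to 1.56%; 237 sites). It was the only Igk step not called lower in CHG and the only one called higher in CHH. In both contexts part of its level lay at called sites close together, given below, and its calls without them were not computed.

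Away from that border Igk levels stayed low. The next highest step in CHG, chr6:70380001-70480000, had 0.597% (0.475% to 0.740%). The lowest were chr6:67980001-68080000 with 0.288% (0.215% to 0.377%) and chr6:69680001-69780000 with 0.290% (0.218% to 0.378%), which lie 2600 to 2700 kb and 900 to 1000 kb from the constant border. Beyond the constant border the first flanking step had 0.948% in CHG and 1.203% in CHH. The window was below its flanks by 0.344 points in CHG (window minus flanks -0.378 to -0.311) and by 0.340 points in CHH (-0.395 to -0.287).

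The constant end of Igk exceeded its variable end in CHH and CpG. The 300 kb at the constant border had 0.549% in CHG, 0.964% in CHH and 82.6% in CpG, and the 300 kb at the variable border had 0.462%, 0.508% and 79.1%. The variable end minus the constant end was -0.455 points in CHH (-0.632 to -0.296) and -3.50 points in CpG (-4.94 to -2.04), while the CHG difference of -0.087 points had an interval that reached just above 0 (-0.177 to 0.00018). With a depth of at least 30 reads that CHG difference was -0.466 points. The CHH difference was -0.760 points with ends of 100 kb and -0.111 points with the window split at its middle. Part of the CHH level at the constant end lay at called sites close together, all in the step at the border. Sites 70666057, 70666060 and 70666065 had 8 of 39, 6 of 39 and 12 of 40 reads methylated. A second group, 70670261, 70670266 and 70670268, had 4 of 32, 17 of 35 and 8 of 34. The CHG sites 70666041 and 70666073, beside the first group, had 8 of 37 and 9 of 37. The whole 300 kb had 153 methylated CHH reads and 240 methylated CHG reads. Sites so close can share reads, which the intervals do not allow for, and the levels without these sites were not computed.

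Tcra/Tcrd, which holds the delta locus within the alpha locus, changed along its length. The window has 18 steps, of which 15 listed the required 100 CHG sites and 17 the required 30 CHH sites. The steps left out in CHG, which lay 900 to 1000 kb and 1200 to 1400 kb from the constant border, listed 15, 65 and 77 CHG sites. Going from the constant border outward, the first 6 steps had 0.840%, 0.789%, 0.632%, 0.738%, 0.795% and 0.696%, and 5 of these 6 were not called. The 9 tested steps beyond 600 kb had 0.358% to 0.542%, and all 9 were called lower. None of these 9 tested steps reached the lowest of the first 6. This division was drawn after the values were seen and was not tested.

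In total, 10 of 15 Tcra/Tcrd steps were called lower in CHG (31.4% of all steps) and none higher, and in CHH 8 of 17 were called lower (26.3%) and 1 higher (22.0%). The highest steps in CHG were chr14:54750001-54850000, at the constant border, with 0.840% (0.706% to 0.993%) and chr14:54350001-54450000 with 0.795% (0.662% to 0.947%). The lowest were chr14:53250001-53350000 with 0.358% (0.267% to 0.469%) and chr14:53750001-53850000 with 0.375% (0.249% to 0.542%). In these low steps CHH had 0.878% and 0.754%, each above their CHG level. Across the 15 steps CHG rose and fell with CpG (Spearman's rho 0.72) and with CHH (0.47), all from the same library, and over all autosomal steps the rho of CHG with CpG was 0.10. The rho of CHG with CpG was 0.37 over the 28 steps of Igh, 0.05 over the 32 of Igk and -0.57 over the 7 of Tcrb.

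The end comparison showed the same fall in all 3 contexts. The 300 kb at the constant border of Tcra/Tcrd had 0.753% in CHG, 0.946% in CHH and 82.8% in CpG, and the 300 kb at the variable border had 0.391%, 0.540% and 75.7%. The variable end minus the constant end was -0.361 points in CHG (-0.455 to -0.268), -0.406 points in CHH (-0.581 to -0.237) and -7.12 points in CpG (-8.53 to -5.74). With ends of 100 kb these were -0.458, -0.707 and -3.66 points, and with the window split at its middle the CpG difference was -3.90 points. Against both 1 Mb flanks together, the window as a whole did not differ in CpH methylation beyond counting error (CHG -0.039 points, -0.082 to 0.004; CHH 0.030 points, -0.044 to 0.101), though with flanks of 0.5 Mb the CHH difference was 0.126 points. The flank on the variable side, where olfactory receptor genes are the neighbours, had 0.580% in CHG, and the flank on the constant side, which starts with Dad1, had 0.671%. The window was below the latter by 0.087 points (window minus flank -0.144 to -0.033) and did not differ from the former beyond counting error (0.004 points, -0.047 to 0.054).

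Tcrb, the shortest window, had 6 of 7 steps called lower in CHG (31.4% of all steps) and 5 of 7 in CHH (26.3%). Its CHG steps ranged from 0.387% to 0.781% and its CHH steps from 0.377% to 0.768%. The lowest in CHG was chr6:41310001-41410000 with 0.387% (0.290% to 0.506%), followed by chr6:41110001-41210000 with 0.487% (0.397% to 0.592%). The highest was chr6:41010001-41110000 with 0.781% (0.667% to 0.910%), and the step at the constant border, chr6:41410001-41510000, had 0.611% (0.500% to 0.739%). The CHG and CHH levels ranked the 7 steps almost alike (Spearman's rho 0.96).

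The setting of Tcrb differed between its sides. Of the 10 CHG steps in each flank, 9 on the constant side and 5 on the variable side were called lower (31.4% of all steps). The flank on the constant side, toward Ephb6, had 0.537% in CHG and 0.579% in CHH, within counting error of the window (window minus flank 0.027 points in CHG, -0.027 to 0.082, and 0.008 points in CHH, -0.070 to 0.087). The flank on the variable side had 1.02% and 1.13%, and the window was below it by 0.453 points in CHG (window minus flank -0.513 to -0.392). That flank rose with distance to 2.16% in CHG and 3.50% in CHH in its farthest step, chr6:39840000-39939999. With flanks of 0.5 Mb the difference to both flanks turned from -0.235 to 0.013 points in CHG. The Tcrb variable end exceeded its constant end by 0.137 points in CHG (0.048 to 0.227), but with ends of 100 kb the difference was -0.134 points.

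The steps were also set against the mitochondrial level by a one-sided exact binomial test with the same adjustment, which was added after the data were seen. Of all autosomal steps, 93.4% were above that level in CHG and 85.6% in CHH. In Igh, 7 of 28 steps were above it in CHG and 2 of 28 in CHH. The share was larger in Igk, with 15 of 32 in CHG and 17 of 32 in CHH. In Tcra/Tcrd 11 of 15 and 11 of 17 steps were above it, and in Tcrb 6 of 7 and 5 of 7. A step that was not above it was not distinguishable from unconverted reads at this depth, which does not show that it carried no methylation. With the level of autosomal CHH sites followed by another listed cytosine (0.355%) in place of the mitochondrial level, 94.3% of all steps were above it in CHG and 86.8% in CHH, and the window counts in CHG were 7 in Igh, 16 in Igk, 11 in Tcra/Tcrd and 6 in Tcrb.

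**Figure D2:**
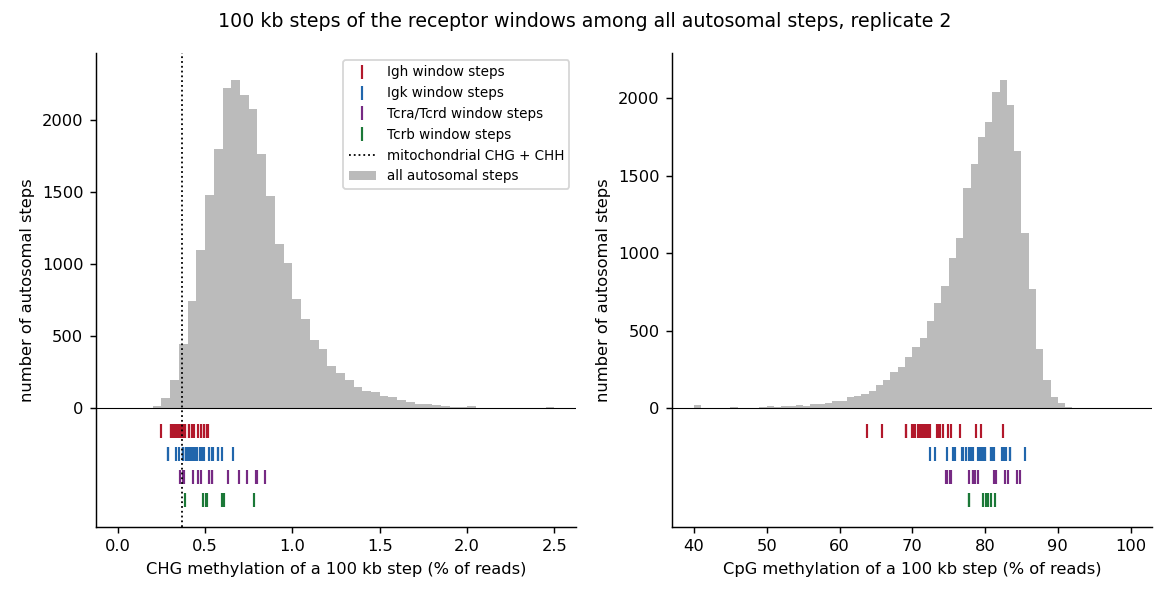
Numbers of autosomal 100 kb steps of replicate 2 (vertical axis) by CHG and by CpG methylation (% of reads, horizontal axis), with each step of the 4 windows as a tick below and values beyond the axis limits drawn in the edge bins. The Igh ticks gather at the low edge in CHG (median 0.375%, all autosomal steps 0.734%) and left of the centre in CpG (median 71.9%, all autosomal steps 80.2%).

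CHH methylation in neurons depends on the base that follows the cytosine. With no genome sequence of the build, the following base was read from the tables: a CHH site whose next position was itself listed as a cytosine is followed by C, and one whose next position was not listed is followed mostly by A or T, with some cytosines of too little depth among them. Over the autosomes the sites with no listed cytosine after them had 1.04% and those with one had 0.355% (0.354% to 0.357%), just under the mitochondrial level.

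This contrast was smallest in Igh. There the levels were 0.384% and 0.305%, a difference of 0.079 points (0.029 to 0.126), while the Igh flanks had 0.959% and 0.284%, a difference of 0.675 points (0.566 to 0.776). Igk had 0.546% and 0.345% (difference 0.202 points, 0.146 to 0.253), Tcrb 0.651% and 0.367% (0.285 points, 0.160 to 0.394) and Tcra/Tcrd 0.782% and 0.251% (0.531 points, 0.452 to 0.604). In Tcra/Tcrd the difference was close to that in its flanks, 0.553 points (0.446 to 0.651). In CHG, where the contrast over the autosomes was 0.363 points, the interval of each window held 0, at 112 to 459 sites with a listed cytosine after them.

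**Figure D3:**
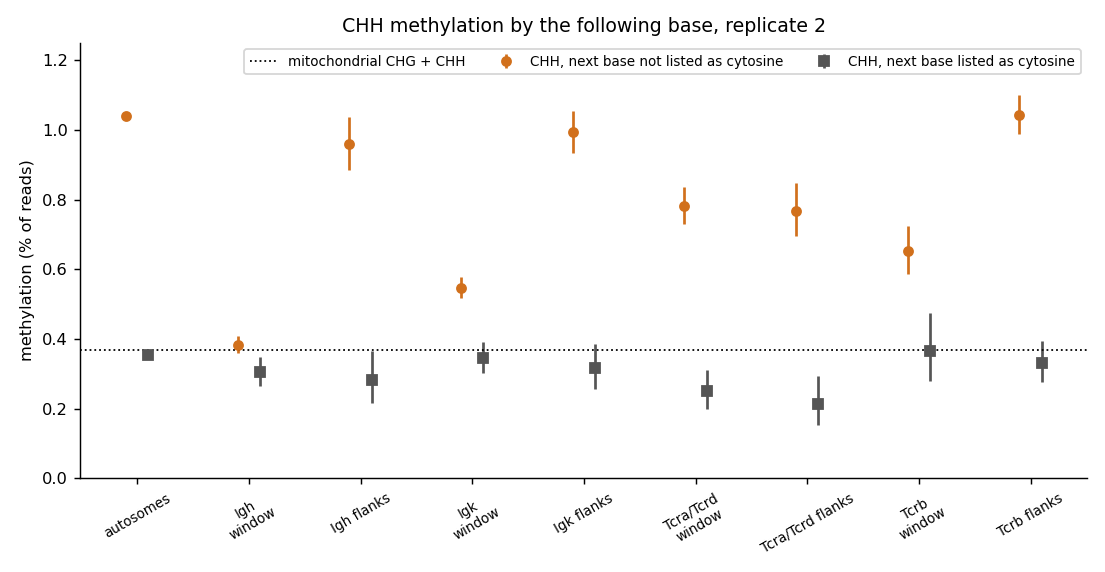
CHH methylation (% of reads, vertical axis) of sites with and without a listed cytosine at the next position, for the autosomes, each window and each window's 2 flanks together (horizontal axis), with exact 95% counting intervals and the mitochondrial level dotted, replicate 2. The paired points are 0.079 points apart in Igh and 0.531 points apart in Tcra/Tcrd, against 0.684 points over the autosomes.

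Single CpH sites were also tested against the mitochondrial level, with a one-sided exact binomial test, and called methylated where they passed, Benjamini-Hochberg adjusted at 0.01 over all nuclear sites of a context. Of all sites, 1.46% were called in CHG and 2.75% in CHH. In Igh, 101 of 21418 CHG sites (0.472%; 0.384% to 0.573%) and 56 of 8959 CHH sites (0.625%; 0.473% to 0.811%) were called. Igk had 134 called CHG sites (0.557%) and 109 called CHH sites (1.18%). Tcra/Tcrd had 89 (0.893%) and 78 (1.88%), and Tcrb 49 (0.957%) and 26 (1.24%). All 8 shares lay below those of the whole library, and the called CHG sites of the windows had median levels of 15.0% to 16.7%. In the constant-side and variable-side flanks, called CHG sites were 1.74% and 0.996% for Igh and 1.38% and 1.37% for Igk. They were 1.10% and 0.837% for Tcra/Tcrd and 0.716% and 2.04% for Tcrb, so each T cell receptor window exceeded 1 of its flanks.

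The sites with the lowest p in Igh were the CHG site 116730995, with 8 of 20 reads methylated (40%; 19.1% to 63.9%), and the CHG site 114770010, with 8 of 31 (25.8%; 11.9% to 44.6%). The first lay 2241 kb from the constant border and the second 280.0 kb from it. In Igk a CHH site at 70670266, 9.73 kb from the constant border and so within the step of high CHH, had 17 of 35 reads methylated (48.6%; 31.4% to 66.0%). The CHG site 69561142 had 11 of 21 (52.4%; 29.8% to 74.3%). In Tcra/Tcrd they were the CHH site 54638379, with 14 of 32 (43.8%; 26.4% to 62.3%), and the CHG site 54148313, with 10 of 23 (43.5%; 23.2% to 65.5%). In Tcrb they were the CHG site 40995912, with 10 of 34 (29.4%; 15.1% to 47.5%), and the CHH site 41491501, with 9 of 35 (25.7%; 12.5% to 43.3%). At 20 to 35 reads each interval is wide, so these sites cannot be ranked by level.

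CpG methylation set Igh apart from the other windows, though at a depth of at least 40 reads Igh had 74.5% and Igk 71.6%. Of its 28 steps 25 were called lower than the autosomal level, against 30.9% of all steps, and 1 higher (46.4% of all steps), with a range of 63.8% to 82.4%. The higher one was the step at the constant border, with 82.4%, and the lowest, 63.8%, lay 2200 to 2300 kb from it. Igk had 8 steps lower, 8 higher and 16 neither, Tcra/Tcrd 4 lower, 6 higher and 5 neither of 15 tested, and Tcrb 0 lower, 1 higher and 6 neither. Against both flanks together, CpG was lower in Igh by 5.19 points (window minus flanks -5.71 to -4.67) and higher in Tcra/Tcrd by 7.99 points (7.40 to 8.58). The sides of Igh were unlike: the window differed by -1.65 points from its constant-side flank, which had 73.7%, and by -8.62 points from its variable-side flank, which had 80.7%. The Igh difference to both flanks was -3.47 points with flanks of 2 Mb and -8.24 points at a depth of at least 30 reads. The Tcra/Tcrd flank on the constant side had 68.5%, and with flanks of 2 Mb its difference was 5.09 points. In Igk and Tcrb the differences were 0.57 points (0.11 to 1.04) and -0.71 points (-1.49 to 0.067), and the one in Igk turned to -0.18 points with flanks of 2 Mb.

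**Figure D4:**
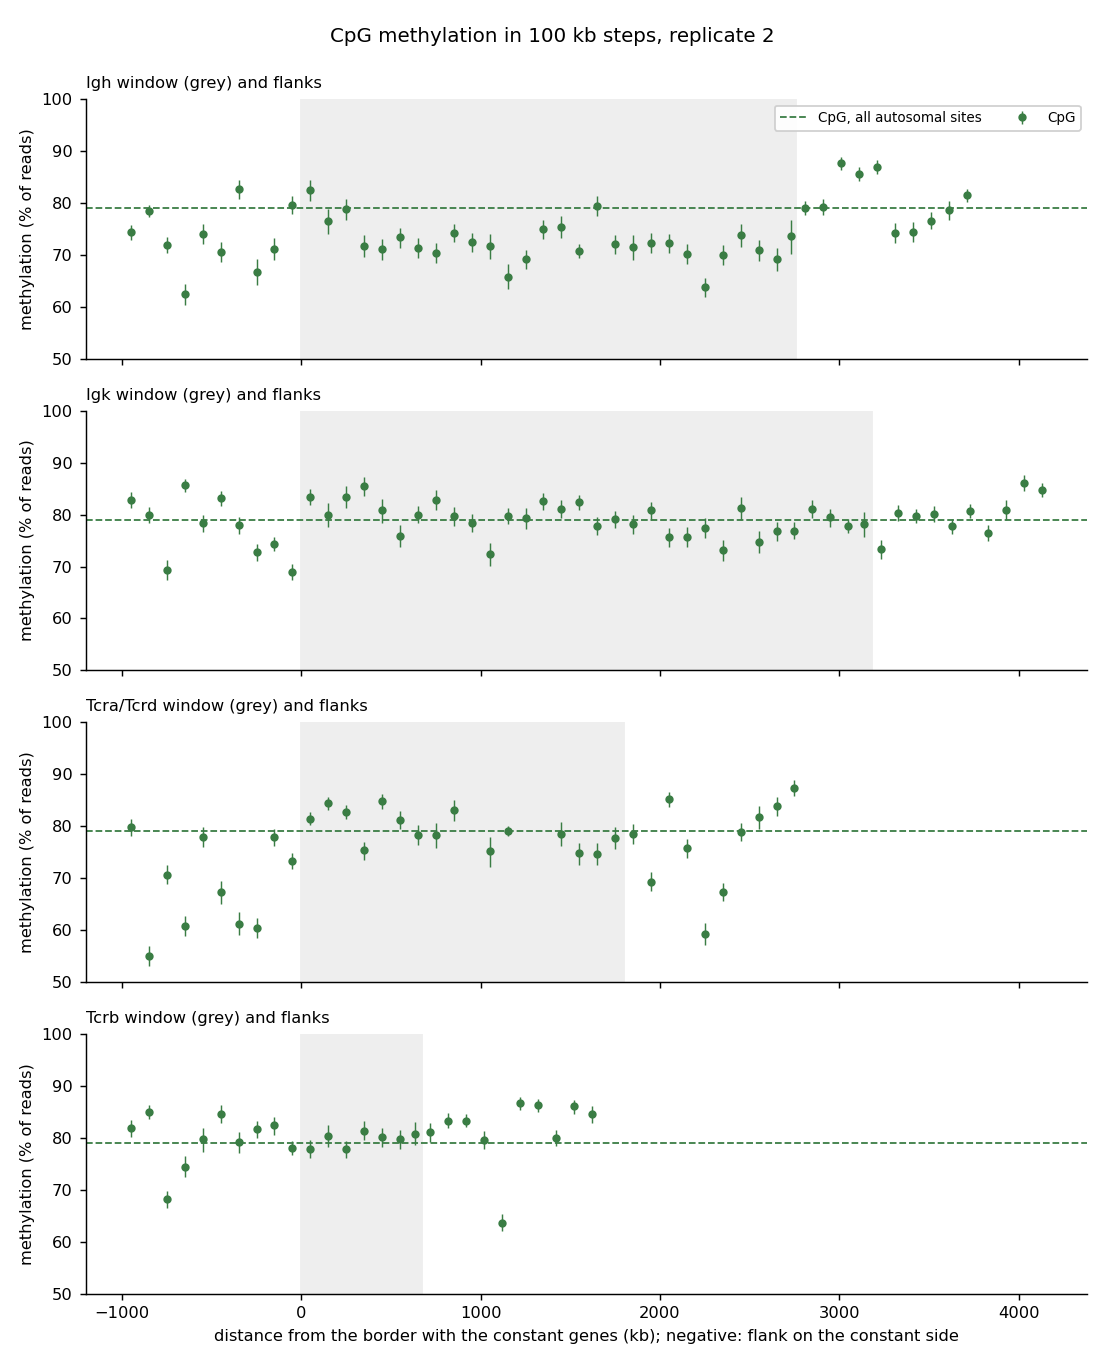
CpG methylation (% of reads, vertical axis, which does not start at 0) of 100 kb steps of replicate 2 by distance from the constant border (kb, horizontal axis), with each window in grey, flanks outside it, exact 95% counting intervals as bars and the autosomal level dashed. In Igh 25 of 28 steps lie below the dashed line by the test, and the 3 nearest the constant border have 82.4%, 76.5% and 78.8%.

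The lower CpG level of Igh came with many sites of intermediate level. Between 20% and 80% methylated were 49.0% of its 2312 CpG sites (47.0% to 51.1%), against 28.0% of all autosomal CpG sites, 37.3% in Igk, 33.8% in Tcra/Tcrd and 35.1% in Tcrb. Sites at 80% or more made up 47.5% in Igh, 61.2% in Igk, 63.8% in Tcra/Tcrd and 62.5% in Tcrb, against 66.6% of all autosomal sites. The median CpG site had 77.8% in Igh and 88.5% over the autosomes.

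Sites at 20% or less were fewer than the autosomal 5.40% in every window, with 3.42% in Igh, 1.47% in Igk, 2.41% in Tcra/Tcrd and 2.40% in Tcrb. Runs of at least 3 neighbouring listed CpG sites that were all at 20% or less, a pattern known from CpG islands, were absent among the listed sites of Igh and Igk, while each of the 4 flanks of these loci had 6 to 14. Over the autosomes there were 4.802 such runs per 1000 listed CpG sites, and in these flanks 5.46 to 12.6. Tcra/Tcrd had 2 such runs, or 1.37 per 1000 sites, against 20 and 8 runs (19.1 and 9.14 per 1000) in its flanks on the constant and the variable side. One, chr14:54466868-54466922, 383 kb from the constant border, held 5 sites with 5.61% of 107 reads methylated (2.09% to 11.8%). The other, chr14:54424031-54424088, held 3 sites with 0 of 71 reads methylated (0% to 5.06%). Sites of a run can share reads, and runs were picked by these same counts, so the intervals given for runs do not bound their levels. Tcrb had 1 run, chr6:41212989-41213095, of 3 sites with 3.95% of 76 reads methylated (0.82% to 11.1%). That is 1.85 runs per 1000 sites, against 4 runs in each of its flanks (4.34 and 3.59 per 1000).

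**Figure D5:**
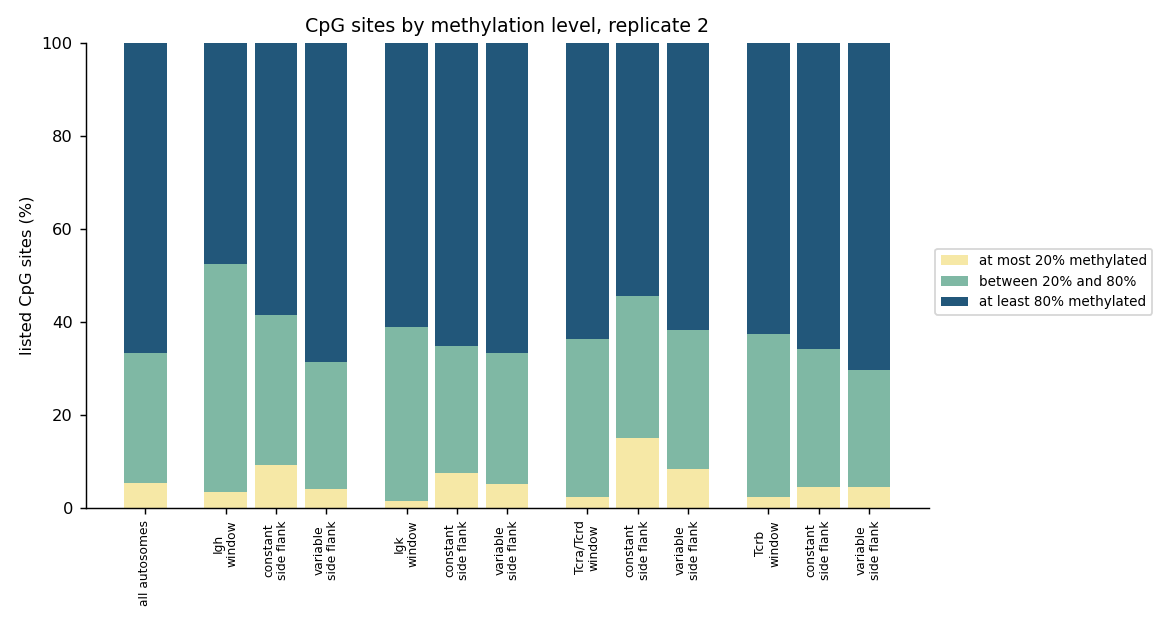
Shares of listed CpG sites (%, vertical axis, stacked to 100) that were at most 20%, between 20% and 80%, and at least 80% methylated, for all autosomes and for each window and flank (horizontal axis), replicate 2. The middle class takes 49.0% in the Igh window, 33.8% to 37.3% in the other windows and 28.0% over the autosomes.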

How the data were processed

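The build was mm9 and the tools included Bismark 0.7.5, per the submitters' processing notes. How reads were trimmed, deduplicated or filtered for conversion is not given in the sources used here. Per the labels' protocols, each library used 3 µg of genomic DNA mixed with 0.5% unmethylated lambda DNA, whose reads were not analysed here. The authors deposited, for each of 2 libraries and 3 contexts, the count of methylated, unmethylated and total reads per listed cytosine. They also deposited the percent of methylated reads, which matched the counts to within 1e-06. The tables are named for 1 strand class (OT), and the opposite strand was not analysed here. The lowest total was 20 reads, or 30 for CHH in replicate 2. Replicate 2 held 2881459 CpG, 18322704 CHG and 6231179 CHH sites at median depths of 23, 23 and 32 reads, against 7959, 39325 and 124736 in replicate 1.

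Nuclear sites over 100 reads were left out (1 CpG and 6 CHH sites of Igk, none in the other windows). The mitochondrial level was taken with no upper limit of depth, from 24979699 read calls over 2796 sites. Levels are read-weighted. Levels have exact Clopper-Pearson and differences Newcombe 95% intervals. Tests were exact binomial with Benjamini-Hochberg adjustment (Python 3.11.15, scipy 1.17.1) and were tested on simulated data first. A step needed 100 CHG, 30 CHH or 20 CpG sites. Steps start at the constant border, whose side was taken from textbook order and checked against the gene order in GRCm38.p6. The text names, for each locus, the 2 highest and 2 lowest steps by CHG level, the 2 called CpH sites with the lowest p and the 2 longest runs of CpG sites at 20% or less. The windows, lists and choices were made with earlier results of these data known. Alternatives in depth, flank and end width, step width, reference level and site weighting were tried. With 1 group and 1 library in use, no comparison between samples was possible.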

Additional observations from a re-analysis of the deposited data

Results flagged for a closer look

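Replicate 1, which no comparison above uses, had 13.6% methylated reads (139 of 1019; 11.6% to 15.9%) at its 43 listed CHH sites of the Tcra/Tcrd window, above the mitochondrial level of that library, 0.418%, and above its autosomal CHH level, 1.28%. Of these sites, 16 lay within 34 bp (chr14:54148299-54148332), 702 kb from the constant border, with 34.5% of 386 read calls methylated (29.7% to 39.4%) and site levels of 10% to 52%. Each of the 16 had 20 to 27 reads, and sites so close can share reads. A shared read is counted at each site, so this interval and that of the 43 sites are too narrow. The other 27 sites had 0.948% (0.349% to 2.05%). The same segment holds the CHG site 54148313, with 43.5% in replicate 2 and 17.4% (4 of 23 reads) in replicate 1. The CpG sites there, 54148307 and 54148314, had 44% and 48.1% in replicate 2 and 16.7% and 33.3% in replicate 1. Replicate 2 listed no CHH site in this segment.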

How the results depend on the processing

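No paired analysis was possible because the series has 1 group and nothing to pair it with. Of 351 values recomputed under an alternative, 258 stayed within their counting interval or within 1.5 times, and the cause of the others was not tested. Of the 258, 58 came from lifting the upper limit of depth, which adds no site to the Igh, Tcra/Tcrd or Tcrb window. The setting of at least 30 reads leaves all CHH sites as they were, since these already had 30 reads. The 258 is therefore not a measure of stability. Among 146 recomputed differences 12 changed sign, 6 of them from an interval that had excluded 0 and 6 from one that had held it. The latter were the CHG ends of Igh (-0.030 at 30 reads, -0.066 with ends of 100 kb, -0.023 with the window split at its middle), the CHH flanks of Tcra/Tcrd (-0.039 with 2 Mb), the CpG flanks of Tcrb (0.614 with 0.5 Mb) and the CHH ends of Tcrb (-0.276 with 100 kb). At a depth of at least 30 reads in all contexts, the CHG level was 0.504% in Igk and 0.670% in Tcrb. The CHG difference to both flanks was then -0.254 points in Igh, -0.249 in Igk and -0.127 in Tcrb, the CHG difference between the ends was -0.466 points in Igk and, with its sign changed, -0.168 in Tcrb, and the CpG difference of Igk to its flanks changed sign to -4.03 points. The share of CHG steps called lower was then 60% in Igh, 50% in Igk, 100% in Tcra/Tcrd and 50% in Tcrb, over only 5, 4, 1 and 2 tested steps, against 12.6% of all 4788 steps tested at that depth. Called CHG sites were 0.853% in Igh, 1.15% in Igk and 1.90% in Tcrb, against 1.93% of all nuclear sites, so that Tcrb was then close to them. CpG sites at 20% or less were 1.29% in Tcra/Tcrd at that depth, where the autosomal share was not computed. At 40 reads Igh had 0.330% in CHG and Igk had 1.83% of CHG sites called, against 1.99% of all nuclear sites. The CHH levels were then 0.363% in Igh, 0.483% in Tcra/Tcrd, 0.527% in Igk and 0.855% in Tcrb, so Tcra/Tcrd no longer stood highest. With the mitochondrial level subtracted, CHG was 0.020% in Igh, 0.076% in Igk, 0.216% in Tcra/Tcrd and 0.197% in Tcrb.

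With flanks of 0.5 Mb the CHG difference was -0.212 points in Igh, -0.409 in Igk and 0.013 in Tcrb, and the Tcrb CHH difference was 0.014, both with changed sign. With flanks of 2 Mb it was -0.405 in Igh, and the Igk CpG difference changed sign to -0.184. With ends of 100 kb the CHG difference was -0.458 in Tcra/Tcrd and, both with changed sign, -0.066 in Igh and -0.134 in Tcrb, and with Tcra/Tcrd split at its middle it was -0.259. In 50 kb steps, 41.4% of Tcra/Tcrd steps were called lower in CHG, against 23.6% of all 47290 steps. Against a background rate of 1%, called CHG sites were 0.173% in Igh, 0.1996% in Igk, 0.401% in Tcra/Tcrd, 0.410% in Tcrb and 0.674% of all nuclear sites. CpG sites at 10% or less were 1.38% in Igh, 0.503% in Igk, 1.72% in Tcra/Tcrd and 1.48% in Tcrb. The autosomal share at 10% or less was not computed. Without replicate 2, replicate 1 gave CHH levels of 0.284% in Igh, 0.558% in Igk and 13.6% in Tcra/Tcrd. In replicate 1 the CHH difference of Igk to both flanks was -0.027 points, against -0.340 in replicate 2. Of its CHH steps, 1 could be tested in Igh and was called lower, and 1 in Igk and was not called. Of all 228 CHH steps tested there, 41.7% were called lower. Replicate 1 listed too few sites for the other levels, differences and step calls. Below the required 100 sites, its CHG level was 1.67% (0.805% to 3.05%) at 27 sites in Igh and 0.265% at 66 in Igk. It was 1.42% at 12 sites in Tcra/Tcrd and 0% at 4 in Tcrb, against 0.876% over its autosomes. Each of these window levels rests on at most 10 methylated reads. Site calls and CpG site classes were not run in it, and step calls weighted by site were not run because the test takes reads.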

Other observations

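Among the 23795 autosomal CHG steps tested, stretches of neighbouring steps that were not above the mitochondrial level numbered 949, of which 662 were a single step and 46 had at least 5 steps. The longest held 13 steps. Igh held a stretch of 8 steps, chr12:116490000-117250000, the 760 kb at its variable border, with 0.356% in CHG.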
